A study of Homo sapiens with 8 samples.

Results

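The genes described here encode the centromere, the kinetochore and the spindle assembly checkpoint. They were taken by symbol from the count table, which held all 44 of them among 35394 genes. RNA came from HCT116, a human colorectal cancer line of epithelial type whose genotype is labelled as a ras mutation. Cells received PZH (Pien Tze Huang, a formula of traditional Chinese medicine) for 24 h, or DMSO, the solvent control, and each group has 4 libraries. The PZH dose is not stated in the labels, and what separates one replicate from another, beyond its number, is not stated, so the p-values measure only the spread between these libraries, which may be technical. Both groups are the same line.

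The centromere is the chromosome region on which the kinetochore is built, and its chromatin carries CENPA, a histone H3 variant, which the chaperone HJURP and the MIS18 proteins deposit. An inner layer of CENP proteins, the constitutive centromere-associated network, sits on this chromatin through the cell cycle. In mitosis an outer layer made of KNL1, the MIS12 complex and the NDC80 complex joins it and grips spindle microtubules. Kinetochores without a grip recruit the checkpoint proteins BUB1, BUB1B, BUB3, MAD1L1, MAD2L1 and TTK, which hold back anaphase. Many of these genes are transcribed mainly in G2 and mitosis, so their RNA is often read as a measure of proliferation. Cells with less of an RNA and fewer cells in the phases that express it cannot be told apart in bulk samples such as these.

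PZH-treated cells had less RNA of nearly every gene in the group. Of the 44 genes, 41 fell and 2 rose, MIS12 and CENPT, while PMF1 did not pass the test (edgeR's quasi-likelihood test, Benjamini-Hochberg adjusted p under 0.05 over 15006 genes tested). Among all genes tested, 40.9% were called lower and 39.3% higher, 80.3% in all. A fall of at least 2-fold was called for 31 of the 44 genes, against 18.9% of all genes tested, and a fall of at least 4-fold for 16, against 6.07%. The median log2 fold change, PZH over DMSO, was -1.40 for the 44 genes, with quartiles of -2.14 and -0.98, and -0.02 for all genes tested. Libraries of the groups did not overlap for 43 of the 44 genes, against 75.0% of all genes tested. Every one of the 44 passed the filter on low counts. Together they took 0.299 ± 0.00321% of the counts in DMSO and 0.0883 ± 0.00604% in PZH (mean ± SD, n = 4 per group).

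**Figure D1:**
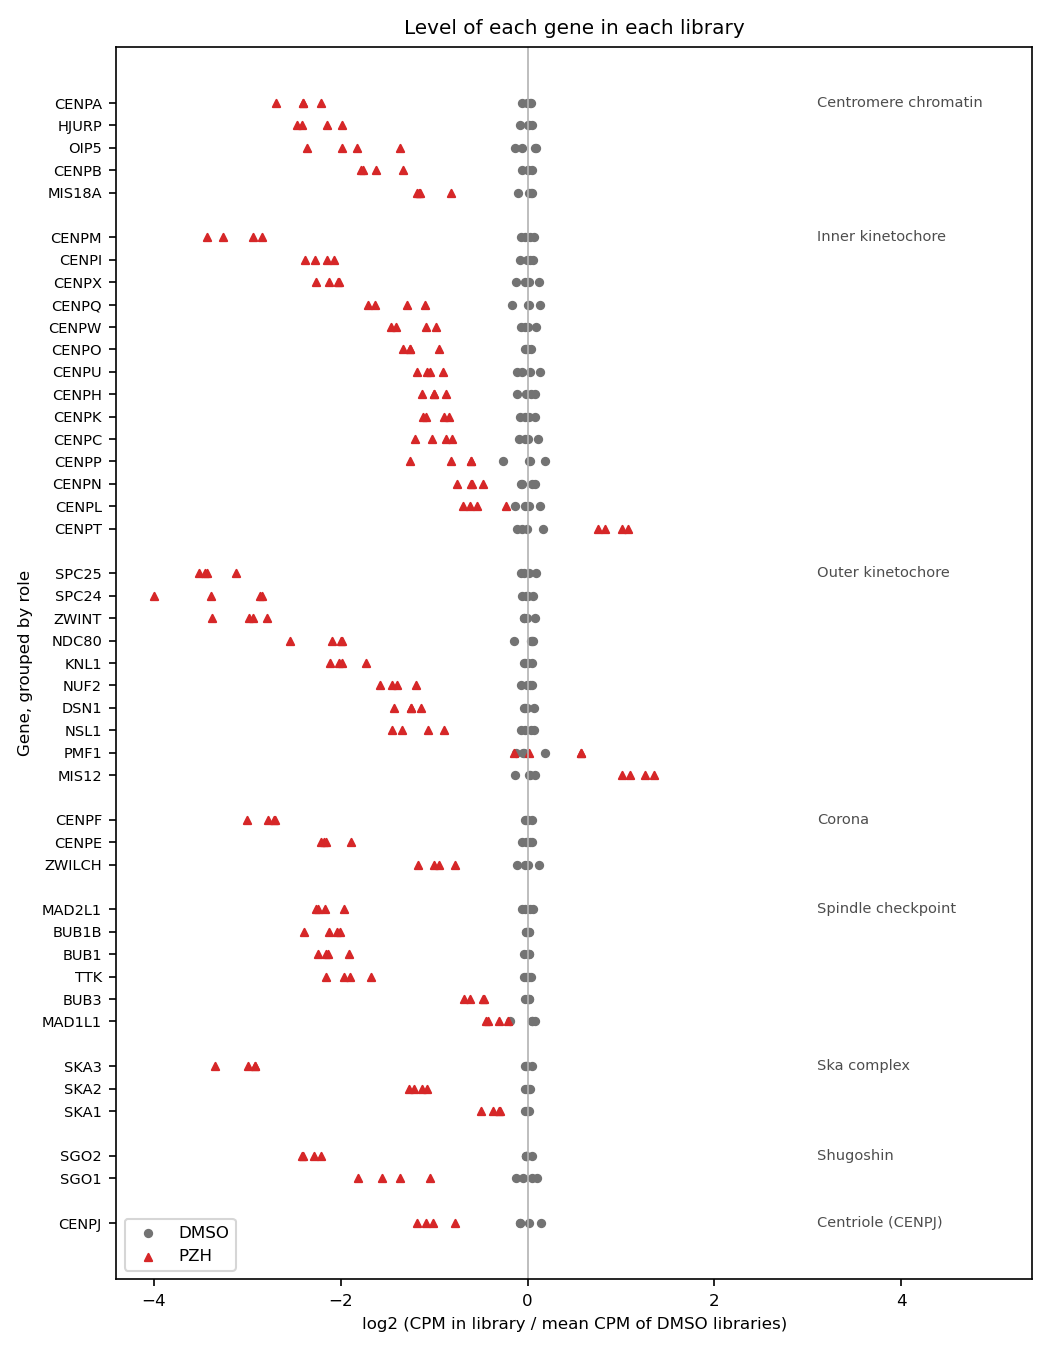
Level of each of the 44 genes in each library, as log2 of its CPM over the mean CPM of the 4 DMSO libraries, with genes grouped by role and sorted by fold change. Grey circles are DMSO and red triangles PZH libraries. For 41 genes the PZH libraries lie to the left of DMSO and for MIS12 and CENPT to the right, and for PMF1 they overlap.

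The libraries held 18144117 to 19917571 counts each, and 3 counts correspond to 0.151 to 0.165 CPM (the count scaled to library size), which covers counting error only. DMSO replicates differed less from each other than PZH replicates (biological coefficient of variation 3.55% and 8.01%). Without TMM scaling factors the median of all genes moved by -0.26 on the log2 scale, with 7670 genes lower and 4473 higher instead of 6143 and 5901. Under that setting too, 41 of the 44 genes were called lower and 2 higher. The epithelial markers EPCAM, CDH1, KRT8, KRT18 and KRT19 were abundant in every library, while CDX2 had 135 to 310 counts, KRT20 23 to 34 in DMSO and 0 to 2 in PZH, VIL1 at most 4 and CDX1 none. These 9 genes summed to 3847 to 3915 CPM in DMSO and 2382 to 2707 CPM in PZH, with KRT8 lower and CDH1 higher in counts in every PZH library, and their part in the results was not tested. Of markers of other cell types, the 6 fibroblast genes summed to 11.7 to 14.3 CPM in DMSO and 17.5 to 21.3 CPM in PZH, nearly all of it COL1A1, with COL1A2 at 0 counts in every library. The 4 endothelial genes reached at most 1.58 CPM, the 5 immune genes 3.11 CPM and the 4 erythroid genes 0.552 CPM.

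Promoter sequences are shown for 8 genes, the 6 with the steepest falls among those that had a promoter entry and the 2 that rose, so that both directions can be read side by side. They come from RefSeq (GRCh38.p14), which gave a promoter, 250 bases before to 50 after the start site, for 36 of the 44 genes, and none for CENPH, CENPJ, CENPL, CENPM, MIS18A, KNL1, BUB3 and TTK. Capitals mark the CHR element TTTGAA, which the MuvB core protein LIN54 binds in many genes of G2 and mitosis, and the CCAAT box, which the factor NF-Y binds, each on either strand (TTCAAA and ATTGG where the match is on the other strand). SPC25 (minus strand, chr2:168890381-168890680), SPC24 (minus strand, chr19:11155733-11156032), SKA3 (minus strand, chr13:21176503-21176802), ZWINT (minus strand, chr10:56361210-56361509), CENPF (plus strand, chr1:214602945-214603244) and CENPA (plus strand, chr2:26785806-26786105) fell. MIS12 (plus strand, chr17:5486124-5486423) and CENPT (minus strand, chr16:67847644-67847943) rose. Each run reads from the upstream end to the start site and beyond.
SPC25: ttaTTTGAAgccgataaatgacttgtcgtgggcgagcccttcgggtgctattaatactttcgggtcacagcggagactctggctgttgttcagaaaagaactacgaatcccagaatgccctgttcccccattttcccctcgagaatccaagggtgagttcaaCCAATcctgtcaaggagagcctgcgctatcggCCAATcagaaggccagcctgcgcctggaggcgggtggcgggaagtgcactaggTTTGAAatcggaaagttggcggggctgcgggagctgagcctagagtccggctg
SPC24: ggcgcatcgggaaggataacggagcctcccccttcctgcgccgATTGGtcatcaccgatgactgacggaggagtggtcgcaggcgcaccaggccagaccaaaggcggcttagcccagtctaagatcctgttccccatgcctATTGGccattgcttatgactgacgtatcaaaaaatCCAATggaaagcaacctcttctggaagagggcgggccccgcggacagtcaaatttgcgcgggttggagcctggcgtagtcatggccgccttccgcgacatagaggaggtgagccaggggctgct
SKA3: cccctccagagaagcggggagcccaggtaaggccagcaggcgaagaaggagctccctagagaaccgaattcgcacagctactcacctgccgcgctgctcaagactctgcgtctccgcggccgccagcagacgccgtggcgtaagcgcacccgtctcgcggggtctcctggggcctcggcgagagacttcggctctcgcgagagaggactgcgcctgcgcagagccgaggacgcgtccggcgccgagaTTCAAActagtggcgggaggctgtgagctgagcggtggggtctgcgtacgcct
ZWINT: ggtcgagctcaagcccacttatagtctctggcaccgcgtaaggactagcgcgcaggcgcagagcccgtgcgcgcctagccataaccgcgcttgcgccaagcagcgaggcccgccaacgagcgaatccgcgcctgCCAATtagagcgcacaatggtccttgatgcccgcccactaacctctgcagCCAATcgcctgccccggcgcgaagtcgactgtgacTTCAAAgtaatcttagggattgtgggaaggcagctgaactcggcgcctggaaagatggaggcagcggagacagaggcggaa
CENPF: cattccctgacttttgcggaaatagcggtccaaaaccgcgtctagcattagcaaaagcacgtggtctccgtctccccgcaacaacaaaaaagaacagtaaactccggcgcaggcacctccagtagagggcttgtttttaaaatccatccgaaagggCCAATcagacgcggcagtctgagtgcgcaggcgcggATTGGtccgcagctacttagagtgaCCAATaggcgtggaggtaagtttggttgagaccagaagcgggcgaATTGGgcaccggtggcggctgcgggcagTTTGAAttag
CENPA: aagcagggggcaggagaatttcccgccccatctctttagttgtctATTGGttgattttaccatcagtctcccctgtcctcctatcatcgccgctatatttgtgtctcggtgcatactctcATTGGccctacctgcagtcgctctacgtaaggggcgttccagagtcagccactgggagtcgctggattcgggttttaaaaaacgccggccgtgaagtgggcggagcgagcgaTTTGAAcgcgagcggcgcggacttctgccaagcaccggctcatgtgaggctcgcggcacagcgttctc
MIS12: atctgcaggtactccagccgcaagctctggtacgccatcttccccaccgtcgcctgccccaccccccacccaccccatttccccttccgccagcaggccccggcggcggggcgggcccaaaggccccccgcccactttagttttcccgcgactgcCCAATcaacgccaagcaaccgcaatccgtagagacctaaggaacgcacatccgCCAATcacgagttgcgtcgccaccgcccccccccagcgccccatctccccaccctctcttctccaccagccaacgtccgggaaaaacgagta
CENPT: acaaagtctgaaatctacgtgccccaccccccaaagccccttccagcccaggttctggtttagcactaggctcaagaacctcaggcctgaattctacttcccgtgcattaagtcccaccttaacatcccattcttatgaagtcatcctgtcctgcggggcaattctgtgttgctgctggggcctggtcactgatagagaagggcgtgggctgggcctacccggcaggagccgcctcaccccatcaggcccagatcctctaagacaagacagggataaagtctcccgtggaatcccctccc

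The CHR letters occurred in the promoters of 14 of the 36 genes (38.9%) and in 15.4% of 27305 promoters of all genes. Within 50 bases on either side of the start site, a window chosen after seeing the matches, they occurred in 12 of the 36 (33.3%) and in 4.67% of all. In SPC25, SKA3 and NDC80 the match begins 3 bases before the start site. The median log2 fold change was -2.14 over the 14 genes with a match, from -3.37 for SPC25 to -0.36 for SKA1, and -1.24 over the 22 without, from -3.19 for SPC24 to 1.18 for MIS12. The CCAAT box occurred in 22 of the 36 (61.1%), against 35.7% of all promoters. The median log2 fold change was -1.62 over the 22 genes with a CCAAT box and -1.33 over the 14 without. SPC24, the second steepest fall, and MIS12 have CCAAT boxes but no CHR letters, and CENPT has neither in this window. Fold changes of all genes tested were not split by these letters, so the medians have no background beside them. The search used the first listed start site of each gene, and other start sites were not searched. These matches are letters in a sequence, and binding was not measured.

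**Figure D2:**
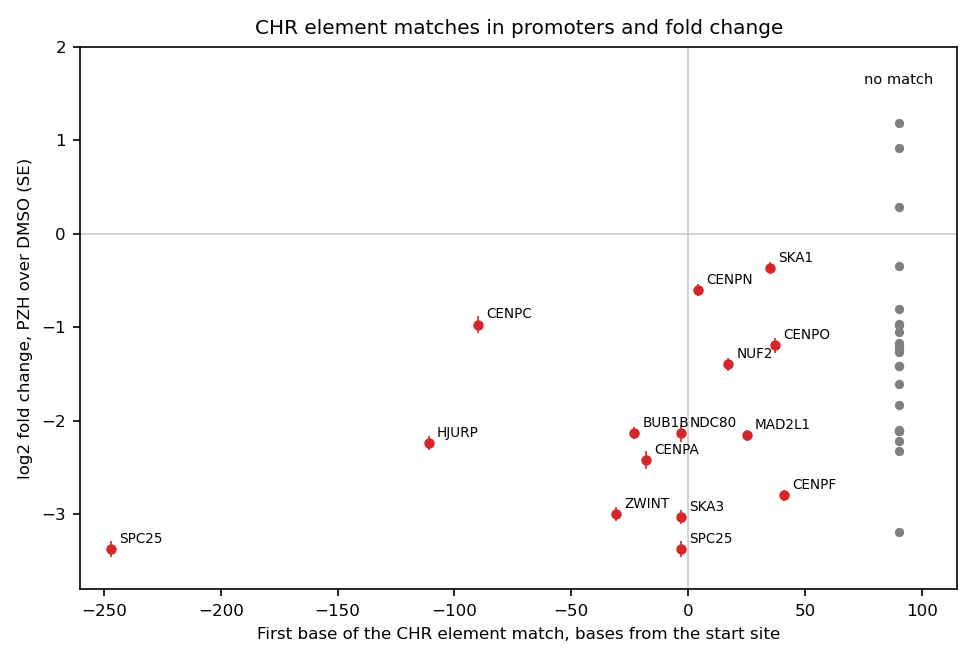
Position of each CHR element match (first base, in bases from the start site) against the gene's log2 fold change with its standard error, for the 14 genes with a match, and grey points at the right for the 22 genes without one. Most matches lie within 50 bases of the start site, SPC25 has a second match far upstream, and MIS12, CENPT and PMF1 are among the genes without a match.

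Centromere chromatin genes fell, 5 of 5, with a median log2 fold change of -1.83. Beside this and the counts by role that follow stand 40.9% called lower and 39.3% called higher among all genes tested. CENPA, the histone variant that marks the centromere, stood at 27.4, 29.2, 29 and 28.4 CPM in the DMSO libraries and at 5.38, 6.14, 5.38 and 4.42 CPM in the PZH libraries (log2 fold change -2.42 ± 0.096 SE, adjusted p = 2.69e-16). Its chaperone HJURP was at 75.0, 82.0, 80.5 and 79.8 CPM in DMSO and 17.9, 20.02, 14.9 and 14.3 CPM in PZH, 4.72-fold lower. No PZH library of either gene came near the DMSO libraries. OIP5 and MIS18A, subunits of the MIS18 complex that licenses CENPA deposition, fell by 1.83 and 1.07 on the log2 scale. CENPB, which binds a repeat of centromeric satellite DNA, fell 3.05-fold from 72.2 ± 2.22 to 23.6 ± 3.59 CPM. OIP5 shares 38.0% of its exon length with the antisense gene OIP5-AS1, and whether reads were counted by strand is unknown, so its value is uncertain.

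Of the 14 inner kinetochore genes, 13 fell and CENPT rose, with a median log2 fold change of -1.02. This network links centromere chromatin to the outer layer, CENPC and CENPT being the proteins that reach out to it. CENPM, a small subunit of the CENPH-CENPI-CENPK-CENPM group, fell most, from 19.2, 19.9, 20.4 and 18.6 CPM to 2.04, 2.72, 1.81 and 2.54 CPM (log2 fold change -3.10 ± 0.124, adjusted p = 3.02e-16). CENPI of the same group fell 4.63-fold, and its partners CENPH and CENPK fell 1.99-fold and 1.97-fold. CENPX, a histone-fold protein that also serves in DNA repair with the Fanconi anaemia complex, fell 4.30-fold from 61.9 ± 4.34 to 14.4 ± 1.11 CPM. The smallest falls were those of CENPL and CENPN, which form a pair, at 1.43-fold and 1.52-fold, and of CENPP at 1.74-fold, while CENPC fell 1.96-fold.

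CENPT went the opposite way from its direct partner CENPW, with which it forms a histone-fold pair. CENPT stood at 12.6, 14.2, 11.7 and 12.1 CPM in DMSO and at 21.4, 22.4, 25.6 and 26.7 CPM in PZH (log2 fold change 0.92 ± 0.092, adjusted p = 3.79e-09). CENPW stood at 17.9, 17.5, 19.0 and 17.0 CPM in DMSO and at 8.38, 9.04, 6.71 and 6.48 CPM in PZH, 2.33-fold lower. Every PZH library thus had more CENPT than any DMSO library and less CENPW. CENPT kept its direction without scaling factors (log2 fold change 0.66) and with the GC trend of each library removed (1.12). The remaining CENPO, CENPQ and CENPU, subunits of one inner complex, fell 2.29-fold, 2.66-fold and 2.07-fold. Of these 14 genes CENPP, CENPO, CENPU and CENPN share 30.2%, 22.9%, 17.3% and 14.5% of their exon length with a gene on the opposite strand (IPPK, ADCY3, PRIMPOL and CMC2), which makes their values uncertain.

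Outer kinetochore genes held both the steepest falls and the largest rise of the group. Of 10 genes, 8 fell, MIS12 rose and PMF1 was not called, and the median log2 fold change was -1.68. SPC25, a subunit of the NDC80 complex, which binds microtubules, stood at 44.8, 50.2, 45.9 and 47.5 CPM in DMSO and at 4.36, 5.43, 4.29 and 4.12 CPM in PZH (log2 fold change -3.37 ± 0.089, adjusted p = 1.57e-19). Its partner SPC24 stood at 26.1, 26.9, 27.2 and 28.3 CPM in DMSO and at 3.74, 3.78, 2.60 and 1.70 CPM in PZH, 9.12-fold lower. In both, every PZH library lay far below every DMSO library. The other pair of the complex, NDC80 and NUF2, which carries the microtubule-binding heads, fell 4.39-fold and 2.63-fold. KNL1, the scaffold that checkpoint proteins dock on, fell 3.88-fold, and ZWINT, which binds KNL1, fell 8.0-fold from 114 ± 4.26 to 14.2 ± 2.31 CPM.

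The MIS12 complex, which joins the inner to the outer layer, did not move as a unit. MIS12 stood at 26.8, 30.9, 29.6 and 29.8 CPM in DMSO and at 69.9, 59.0, 74.6 and 62.6 CPM in PZH (log2 fold change 1.18 ± 0.070, adjusted p = 3.67e-13). PMF1 stood at 8.22, 8.66, 8.75 and 10.2 CPM in DMSO and at 8.09, 9.04, 13.3 and 13.3 CPM in PZH (log2 fold change 0.28 ± 0.142, adjusted p = 0.0702). PZH replicates 3 and 4 of PMF1 thus lie above the DMSO libraries, replicate 2 among them and replicate 1 just below. DSN1 and NSL1, the other subunits, fell 2.40-fold and 2.25-fold, from 45.2 ± 1.55 to 18.8 ± 1.5 CPM and from 42.0 ± 1.80 to 18.6 ± 3.33 CPM. PMF1 passed the test as higher when PZH replicate 1 was left out (0.43 on the log2 scale, adjusted p = 0.00521), or PZH replicate 2 (0.37, adjusted p = 0.0212) or DMSO replicate 4 (0.35, adjusted p = 0.0482), without a filter (0.27, adjusted p = 0.0435), with the replicate number as a block (0.27, adjusted p = 0.0461) and with the GC trend removed (0.44, adjusted p = 0.00729), all by edgeR's quasi-likelihood test. It shares 49.2% of its exon length with the readthrough gene PMF1-BGLAP on the same strand, so its reads could be split between them.

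**Figure D3:**
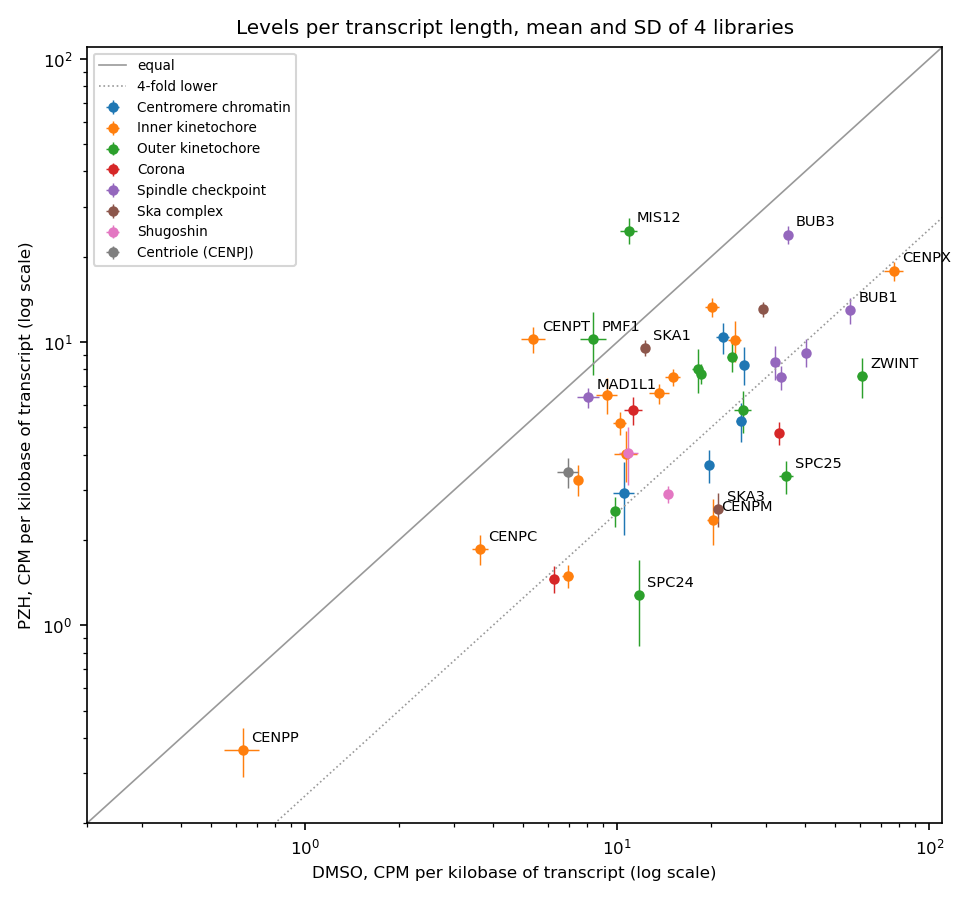
Mean level of each of the 44 genes per kilobase of transcript in DMSO (horizontal, log scale) and PZH (vertical, log scale), with SD of 4 libraries per group as bars and colour by role. The solid line marks equal levels and the dotted line a 4-fold fall, with MIS12, CENPT and PMF1 above the solid line and SPC24, SPC25, ZWINT, SKA3 and CENPM well below the dotted one.

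Divided by the length of the principal GENCODE transcript, levels can be roughly compared between genes, with the caution that the annotation the authors counted on is unknown. Where a gene has several principal transcripts the longest was used. The lengths were 7828 bases for BUB3, 5468 for MAD2L1 and 8766 for CENPP, against 805 for CENPX. Other transcripts were not tried, and the order of genes below depends on this choice. In DMSO, CENPX was highest at 76.9 ± 5.39 CPM per kilobase, then ZWINT at 60.7 ± 2.27 and BUB1 at 55.7 ± 0.894 CPM per kilobase, and CENPP lowest at 0.631 ± 0.0797. In PZH the highest levels were those of MIS12 at 24.7 ± 2.61, BUB3 at 23.9 ± 1.72 and CENPX at 17.8 ± 1.38 CPM per kilobase, of which MIS12 and BUB3 differ by less than their SDs. MIS12 went from place 29 of 44 to place 1 in this order and CENPT from 42 to 8, while SPC25 went from 6 to 33 and ZWINT from 2 to 18.

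Corona genes fell, 3 of 3. The corona is the outermost, fibrous layer of the kinetochore in early mitosis, where the motor CENPE, the large coiled-coil protein CENPF and the RZZ complex with ZWILCH gather. CENPF, which is widely used as a marker of G2, stood at 352, 341, 335 and 336 CPM in DMSO and at 52.0, 52.3, 42.6 and 49.6 CPM in PZH (log2 fold change -2.79 ± 0.057, adjusted p = 2.11e-21). CENPE fell 4.28-fold and ZWILCH 1.96-fold.

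All 6 spindle checkpoint genes fell, but by unequal amounts. The kinase BUB1 stood at 195, 191, 197 and 198 CPM in DMSO and at 44.5, 52.0, 41.2 and 43.7 CPM in PZH (log2 fold change -2.10 ± 0.057, adjusted p = 2.76e-19). BUB1B (BUBR1), MAD2L1, both parts of the complex that inhibits the anaphase-promoting complex, and the kinase TTK (MPS1) fell 4.38-fold, 4.46-fold and 3.76-fold. BUB3, which carries BUB1 and BUB1B to KNL1, fell only 1.47-fold, from 276, 269.6, 278 and 278 CPM to 199, 198, 172 and 180.1 CPM. MAD1L1, the kinetochore receptor of MAD2L1, stood at 21.2, 24.9, 25.6 and 25 CPM in DMSO and at 17.7, 19.6, 18.0 and 21.0 CPM in PZH (log2 fold change -0.34 ± 0.082, adjusted p = 5.87e-04). For MAD1L1 the groups lie close together, with the highest PZH library just below the lowest DMSO library. With the GC trend of each library removed MAD1L1 was no longer called (log2 fold change -0.05, adjusted p = 0.57 by edgeR's quasi-likelihood test), and its principal transcript has a GC content of 62.6%.

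The Ska complex, a trimer that keeps kinetochores on the ends of shrinking microtubules, fell in all of its 3 genes. SKA3 stood at 60.9, 61.3, 60.3 and 63.5 CPM in DMSO and at 8.15, 8.15, 6.04 and 7.75 CPM in PZH (log2 fold change -3.03 ± 0.078, adjusted p = 1.13e-19). SKA1 stood at 36.0, 34.9, 35.8 and 35.5 CPM in DMSO and at 28.8, 29.1, 25.1 and 27.6 CPM in PZH, 1.29-fold lower. SKA2 lay between them at 2.25-fold lower. Subunits of one trimer thus ranged from a slight to an 8.15-fold fall. The groups overlapped in none of them, and did not overlap for 75.0% of all genes tested. The shugoshins, which guard cohesin at centromeres, fell as well, SGO2 5.01-fold from 61.3 ± 1.32 to 12.2 ± 0.831 CPM and SGO1 2.66-fold from 16.6 ± 1.16 to 6.22 ± 1.43 CPM. SGO1 shares 17.9% of its exon length with the antisense gene SGO1-AS1. CENPJ, which despite its name is a centriole protein also called CPAP, fell 2.01-fold.

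**Figure D4:**
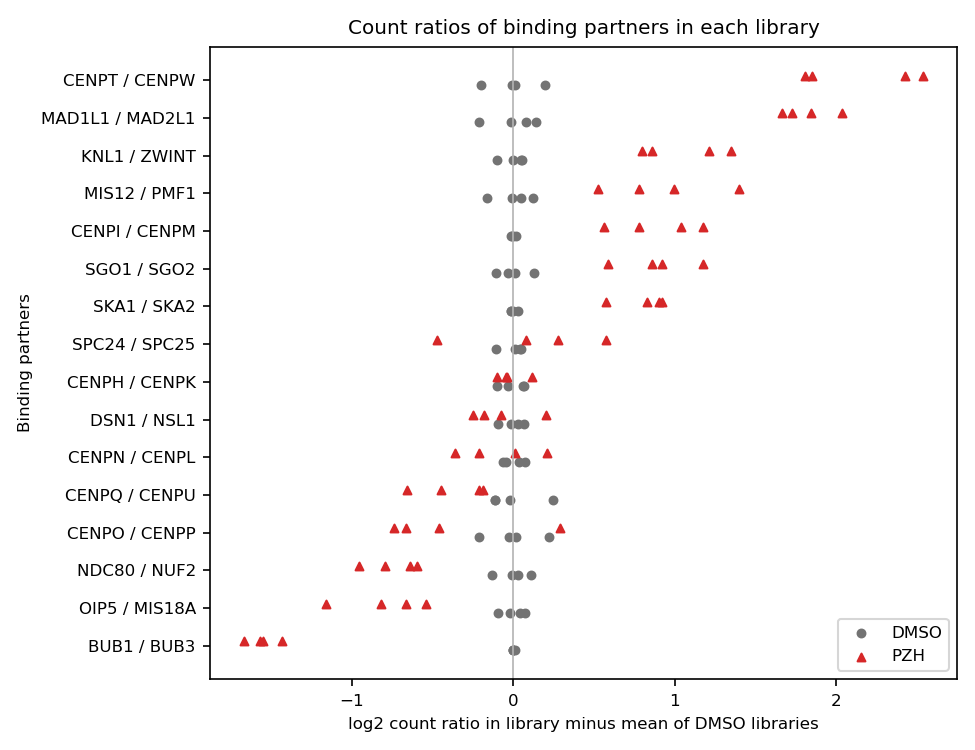
Log2 ratio of the counts of binding partners in each library, minus the mean of the 4 DMSO libraries, for 16 pairs. Grey circles are DMSO and red triangles PZH libraries. The groups are apart for 11 pairs, with CENPT to CENPW farthest to the right and BUB1 to BUB3 farthest to the left.

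Ratios of partner genes within a library do not depend on how libraries are scaled, so 16 pairs of proteins that bind each other were compared this way. They can still depend on GC content, and the GC trend was not removed for ratios. The log2 ratio of counts changed in 11 of the 16 (exact two-sided permutation over 70 assignments, p = 0.0286, the smallest they can give, and adjusted p = 0.0416 over the 16 pairs). With 4 libraries per group this p is reached only where the groups do not overlap, so that is not a separate result. Ratios of other gene pairs were not computed, so the 11 have no background share beside them. For single genes, groups did not overlap for 75.0% of all genes tested. The ratio of CENPT to CENPW went from 0.708 to 3.15, that of MAD1L1 to MAD2L1 from 0.132 to 0.465 and that of BUB1 to BUB3 from 0.709 to 0.242. Per library, the log2 ratio of BUB1 to BUB3 was -0.50, -0.50, -0.50 and -0.49 in DMSO and -2.16, -1.93, -2.06 and -2.04 in PZH. KNL1 rose against ZWINT (difference in mean log2 ratio 1.05), as did MIS12 against PMF1 (0.92), CENPI against CENPM (0.89), SGO1 against SGO2 (0.89) and SKA1 against SKA2 (0.81). OIP5 fell against MIS18A (-0.80), NDC80 against NUF2 (-0.75) and CENPQ against CENPU (-0.38). These 11 calls were lost together without DMSO replicate 1 or DMSO replicate 4, where the smallest adjusted p was 0.0508. The differences without those libraries are within the ranges given for each pair in the closing section, and CENPQ to CENPU was lost also without DMSO replicate 2 or 3.

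The other 5 pairs were not called. CENPH and CENPK differed by -0.02 in mean log2 ratio (exact permutation p = 0.80), DSN1 and NSL1 by -0.08 (exact p = 0.54) and CENPN and CENPL by -0.09 (exact p = 0.51). SPC24 and SPC25 differed by 0.11 (exact p = 0.60), with 0.0721 and 0.44 as SDs in DMSO and PZH. CENPO and CENPP differed by -0.39 (exact p = 0.20). A missed threshold does not show that the members of a pair moved alike. SPC24 to SPC25 was called without PZH replicate 4 (difference 0.31, exact permutation, adjusted p = 0.0381) and CENPO to CENPP without PZH replicate 2 (-0.62, exact permutation, adjusted p = 0.0381).

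Among 27 other genes that act at kinetochores, 20 fell and 7 rose, with a median log2 fold change of -1.64. Of all genes tested, 40.9% were called lower and 39.3% higher. All 4 genes of the chromosomal passenger complex fell, the kinase AURKB 5.42-fold, INCENP 4.25-fold, CDCA8 4.73-fold and BIRC5 10.2-fold. ERCC6L (PICH), a translocase on stretched centromeric DNA, fell most, 12.8-fold from 46.3 ± 1.97 to 3.61 ± 0.459 CPM. The kinesins KIF18A and KIF2C, which shorten microtubules at kinetochores, fell 6.52-fold and 3.49-fold, the kinase PLK1 5.75-fold and the ATPase TRIP13, which disassembles checkpoint complexes, 3.86-fold. KNTC1 and ZW10, partners of ZWILCH in the RZZ complex, fell 2.50-fold and 1.19-fold. The 7 that rose were NDEL1, CLIP1, BOD1, CLASP1, NDE1, MAD2L1BP and CLASP2. Several of them also work on dynein or microtubules outside mitosis. The dynein regulator NDEL1 stood at 30.3, 31.0, 32.0 and 30.1 CPM in DMSO and at 112, 113, 128 and 124 CPM in PZH, 3.87-fold higher, and the plus-end protein CLIP1 was 2.14-fold higher. Without scaling factors 4 of the 7 were called higher, since MAD2L1BP (adjusted p = 0.372), CLASP2 (0.448) and NDE1 (0.0748) no longer passed edgeR's quasi-likelihood test.

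**Figure D5:**
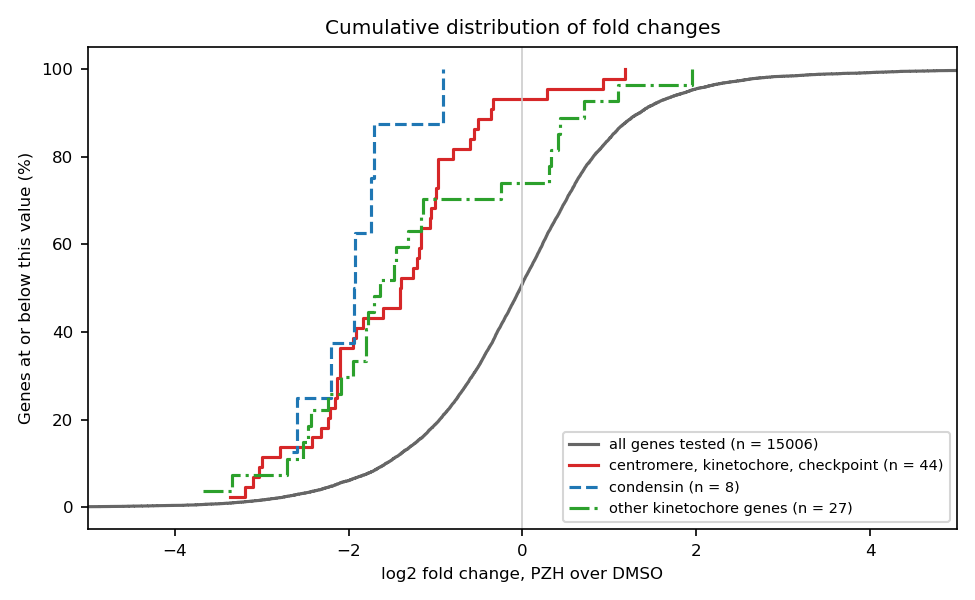
Cumulative share of genes at or below each log2 fold change, for all 15006 genes tested, the 44 centromere, kinetochore and checkpoint genes, the 8 condensin genes and the 27 other kinetochore genes. The curve of the 44 genes lies to the left of that of all genes, with a median of -1.40 against -0.02, and its last steps, to the right of 0, are PMF1, CENPT and MIS12.

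Condensin, the complex that compacts mitotic chromosomes, had all 8 of its genes called lower, with a median log2 fold change of -1.93, from -2.66 for NCAPD3 to -0.91 for NCAPH2. The 44 genes ran from -3.37 to 1.18, but a range tends to widen with the number of genes. Quartiles were -2.31 and -1.73 for condensin and -2.14 and -0.98 for the 44 genes. Of 14 genes for factors that act on cell cycle promoters, 8 were called lower and 6 higher, or 8 and 2 without scaling factors, beside 40.9% lower and 39.3% higher among all genes tested. FOXM1 and MYBL2, activators of genes of G2 and mitosis, fell 9.17-fold and 6.72-fold, and TFDP1, a partner of E2F factors, fell 7.48-fold. FOXM1 stood at 130.2, 128, 139 and 132 CPM in DMSO and at 16.8, 15.2, 11.5 and 13.9 CPM in PZH. Of the MuvB core, LIN9 and RBBP4 fell 1.69-fold and 1.58-fold and LIN37 rose 3.83-fold from 1.83 ± 0.337 to 7.05 ± 0.289 CPM. LIN52 and LIN54 were called higher (log2 fold change 0.24 and 0.18), but without scaling factors stood at -0.021 and -0.076 and were not called. LIN54 was not called either with upper quartile factors (0.11) or with the GC trend removed (0.061). The NF-Y subunit NFYA rose 2.02-fold. NFYB and NFYC had log2 fold changes of 0.32 and 0.24, which without scaling factors were 0.064 and -0.017 and not called. The remaining factors RBL1, RBL2 and E2F4 were called lower, by 3.72-fold, 2.32-fold and 1.13-fold, and E2F4 changed sign with the GC trend removed.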

How the data were processed

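The deposited table holds raw counts, by gene symbol and library, with 0 columns of no sample. Per the labels' protocols, poly(A) RNA was enriched from Trizol-extracted RNA and NEBNext Ultra libraries were made. The submitters' processing notes name HISAT2 2.1.0, FastQC 0.11.5, DESeq 1.28.0 and StringTie 1.3.3b, with no role for any. For the genome build, annotation and use of strand, the sources used here give nothing. Names that read as dates numbered 25. They stayed in library sizes and tests and hold 0.178% to 0.220% of counts.

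Genes were kept by edgeR's filterByExpr (minimum count 10, total 15), which left 15006, scaled with TMM and tested with edgeR's quasi-likelihood F test, two-sided, group as the only term, Benjamini-Hochberg threshold 0.05. A standard error is the log2 fold change over the root of its F statistic. Levels are TMM-scaled CPM. Sums over markers are unscaled. Log2 ratios of partner counts used a pseudocount of 0.5 and an exact permutation of the difference in means. Lengths, GC content and exon overlaps come from GENCODE 29. Lengths and GC content are those of the longest appris principal transcript, or of the longest transcript, protein-coding first, where none is principal. Replicates differed by more than counting noise in every pair (chi-square per degree of freedom 2.39 to 12.3), so none was a copy or recount of another library. This measure cannot tell separate cultures from separate libraries of the same RNA. The programs were tested on simulated data. Versions were edgeR 4.0.16, DESeq2 1.42.0 and limma 3.58.1 under R 4.3.3, with Python 3.11.15.

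The members, lists, pairs and tests were chosen with earlier results of these data known. All 44 genes could be named whatever their values, and any gene of the lists of other kinetochore genes, promoter factors and condensin. Other settings were other scaling (RLE, upper quartile, none), other filters (none, or 1 CPM in 4 libraries), other tests (limma-voom, DESeq2, robust empirical Bayes), a block for replicate number, a threshold of 0.01, a pseudocount of 2 for ratios and the omission of each library in turn. Removal of a GC trend per library (loess on transcript GC, known for all 44 genes and 14867 of those tested) was added as a setting after seeing the data.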

Additional observations from a re-analysis of the deposited data

Results flagged for a closer look

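In 7 of 120 groups of 4 libraries examined (5.83%), 1 library stood apart from the other three by Dixon's criterion, where chance gives about 1 in 20. Among PZH libraries, replicate 1 was highest for MIS18A (19.5 CPM, the others 15.2 to 15.5) and for CENPE (14.5 CPM, the others 11.6 to 12.1). Among DMSO libraries, replicate 3 was lowest for NDC80 (49.8 CPM, the others 56.2 to 57.1), replicate 2 was lowest for BUB3 (269.6 CPM, the others 276 to 278), replicate 1 was lowest for MAD1L1 (21.2 CPM, the others 24.9 to 25.6) and highest for SGO2 (63.3 CPM, the others 60.5 to 60.8), and replicate 4 was highest in the log2 ratio of BUB1 to BUB3 (-0.49, the others -0.50). Each of these genes stayed called lower on leaving out any single library.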

How the results depend on the processing

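Under every alternative for scaling, filter, tool, threshold and left-out library, 41 of the 44 genes were called lower, except 40 with the GC trend removed. Those called higher numbered 2 or 3, the third being PMF1. The count at least 2-fold lower, 31 in the main setting, ran from 30 to 36, with 36 without scaling factors. The count at least 2-fold higher was 0 without scaling factors, where MIS12 stood at 0.93, and 2 with the GC trend removed. Without scaling factors 4 other kinetochore genes and 2 promoter factors were called higher, and LIN52 (-0.021), LIN54 (-0.076) and NFYC (-0.017) changed sign. With the GC trend removed E2F4 changed sign (0.014). The replicate number as a block gave 41 lower and 3 higher and changed no other call among the 44 than that of PMF1. Same-numbered libraries gave no sign of pairing, as their deviations correlated at 7.36e-04 to 0.0113, and not every library correlated best with its own number. A weak shared effect could go unseen in this measure, so pairing is not excluded. On leaving out 1 library at a time, the difference in mean log2 ratio ranged from 2.03 to 2.27 for CENPT to CENPW, 1.75 to 1.87 for MAD1L1 to MAD2L1, -1.59 to -1.51 for BUB1 to BUB3, 0.96 to 1.14 for KNL1 to ZWINT, 0.77 to 1.06 for MIS12 to PMF1, 0.79 to 1.00 for CENPI to CENPM, 0.79 to 0.98 for SGO1 to SGO2, 0.77 to 0.88 for SKA1 to SKA2, -0.88 to -0.67 for OIP5 to MIS18A, -0.80 to -0.67 for NDC80 to NUF2, -0.44 to -0.28 for CENPQ to CENPU, -0.061 to 0.012 for CENPH to CENPK, -0.17 to -0.017 for DSN1 to NSL1, -0.19 to 0.0036 for CENPN to CENPL, -0.62 to -0.28 for CENPO to CENPP and -0.039 to 0.31 for SPC24 to SPC25. With 7 libraries the smallest p is the same as with 8, and fewer pairs reaching it raises every adjusted p. The ranges cover left-out libraries only, as the GC trend was not removed for ratios. For single genes with it removed, CENPI and CENPM stood closer together (log2 fold change -2.31 and -2.87, main -2.21 and -3.10). So did MIS12 and PMF1 (1.09 and 0.44, main 1.18 and 0.28), while CENPT and CENPW stood farther apart (1.12 and -1.35, main 0.92 and -1.22). Among the 44 genes, depth limits CENPM, SPC24 and CENPP most, with 30 to 46, 28 to 66 and 39 to 64 counts in the PZH libraries, and among the other kinetochore genes CENPS, with 6 to 24.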

Other observations

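Among the 4 PZH libraries, the 44 genes were unevenly spread. The highest PZH level lay in replicate 1 or 2 for 36 of the 44 genes (81.8%), against 53.3% of all genes tested, and the lowest in replicate 3 or 4 for 33 (75%), against 46.7%. Condensin was alike, with the highest in replicate 1 or 2 for all its genes but SMC2 and the lowest in replicate 3 or 4 for all. Replicates 3 and 4 were also the closest PZH pair over all genes counted (chi-square per degree of freedom 4.03, other PZH pairs 8.33 to 12.3). No test of this split was planned, and genes that vary together are not independent. The coefficient of variation had a median of 4.15% in DMSO and 12% in PZH over the 44 genes, and 6.15% and 9.67% over all genes tested. Nearly all of the 44 had fewer counts in PZH, and the part of counting noise in the higher value there was not tested. The E2F letters GCGGGAA, on either strand, occurred in the promoters of 7 of the 36 genes (19.4%) and in 6.56% of all promoters, and the median log2 fold change was -1.61 over those 7 genes and -1.41 over the 29 without. Genes with both CHR letters and a CCAAT box numbered 8, with a median log2 fold change of -2.33, and those with neither also numbered 8, with a median of -1.22. These splits too were not made for all genes tested.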
